A study of Mus musculus with 6 samples.

Results

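The genes described here encode the matrix metalloproteinases, the ADAMTS proteases and their inhibitors, as they were measured in mouse NIH3T3 fibroblast lines. Members were all non-control probes on the array whose gene name was Mmp with a number, Adamts with a number, Timp with a number, or Reck. This name rule took 65 of the 61307 probes and 46 of the 50090 gene names. They were 22 Mmp genes with 27 probes, 19 Adamts genes with 32 probes, 4 Timp genes with 5 probes, and Reck with 1 probe. NIH3T3 is an immortalised mouse embryonic fibroblast line. All 3 groups carried the retroviral vector pCX4Neo after geneticin selection and dilution plating. The GFP group expressed GFP alone, while the LT7 and ST7 groups came from cells given SIRT7 fused to GFP, the sirtuin deacylase of the nucleolus. LT7 cells were long and spindle shaped, and ST7 cells were small and grew in compact colonies. Both were picked with cloning cylinders from confluent dishes of the SIRT7GFP cells and carried on as single-cell clones. Each group had 2 arrays, with RNA from different passages. The p-values measured the spread between passages pooled over the 3 groups, so the ST7 arrays also shaped the tests of LT7 against GFP.

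Matrix metalloproteinases are zinc proteases, secreted or held at the cell surface, that are made as inactive precursors and cut collagens, gelatin, fibronectin and other matrix proteins. ADAMTS proteases are secreted relatives with thrombospondin repeats, and among them are enzymes that trim procollagens and enzymes that cut aggrecan and versican. The TIMP proteins bind the active site of these enzymes and block it, and RECK is a membrane-anchored glycoprotein that restrains several of them. Fibroblasts are a main source of these proteins in connective tissue.

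The arrays labelled ST7 stood apart from the others before any gene was compared. The upper quartile (75th percentile) of processed signals lay at 317 to 384 on the GFP and LT7 arrays and 16.3 and 17.1 on the arrays labelled ST7. Between 47.5% and 57.5% of probes were marked well above background by the scanner software on the GFP and LT7 arrays, against 26.4% and 25.8% on the arrays labelled ST7. The brighter probe for Sirt7 gave 3125 and 2480 in GFP and 3633 and 2782 in LT7, against 2.85 and 3.28 on the arrays labelled ST7, where it did not pass that mark. In LT7 it changed by 0.29 on the log2 scale (SE 0.21, limma, adjusted p = 0.47), and on the arrays labelled ST7 it was at least 8.96-fold lower than in GFP. Here and below, such a limit sets the mean of the brighter group against a floor, which for each array of the dimmer group is its lowest signal marked well above background or the signal of that probe, whichever is higher, all after the percentile shift. The Sirt7 probe was not called higher in LT7 either, so it cannot show whether the SIRT7GFP transgene was expressed. By immunoblot, the paper found no significant difference in SIRT7GFP between LT7 and ST7 cells. All 11 fibroblast markers examined were well above background on both arrays of GFP and of LT7, and 4 of the 11 on both arrays labelled ST7. Their summed signal was 408430 and 397010 in GFP, 432670 and 429430 in LT7, against 15066 and 16605 on the arrays labelled ST7. Col1a1, Col1a2 and S100a4 were saturated on all GFP and LT7 arrays, and Dcn on 1 of each, so those sums are limited by the scanner. On the arrays labelled ST7, Vim alone gave 14612 and 16192. Of 8 epithelial markers 2 were well above background on both arrays of GFP (Krt8 and Cldn3), 1 of LT7 (Krt8) and 3 of those labelled ST7 (Epcam, Krt18 and Cldn3). The values there were mixed, with Krt18 at 1881 and 1755 against 6.64 and 4.64 in GFP, and Krt8 at 15.3 and 5.82 against 123 and 62.2. Krt19, Cldn4 and Ocln passed on neither array labelled ST7, and Cdh1, which encodes E-cadherin, passed on no array. In contrast, the paper reported E-cadherin in ST7 cells by RT-PCR, immunoblot and immunofluorescence, and occludin by RT-PCR and immunofluorescence. In bulk RNA such as that on these arrays, fewer cells of a type and less RNA per cell cannot be told apart. Neither can be told from the lower signal of the arrays labelled ST7 as a whole, whose cause was not tested. LT7 replicate 1 was read in a scan of its own, so values without it are also the values within the scan of the other 5 arrays.

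Part of these families was detected in the control fibroblasts. At the brightest probe of each gene, 22 of the 46 genes were well above background on both GFP arrays. These were 8 of the 22 Mmp genes, 9 of the 19 Adamts genes, all 4 Timp genes and Reck. By probe, 31 of the 65 members passed on both GFP arrays, against 32130 of all 61307 probes. Nothing is read from this count about the families as a whole. In LT7 21 of the same 22 genes were well above background on both arrays, and Adamts9 was so on 1 of 2. On the arrays labelled ST7, 4 of the 22 passed on both, namely Mmp17, Mmp23, Adamts14 and Timp1. Adamts7 was so on 1 of the arrays labelled ST7 and the other 17 genes on neither.

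**Figure D1:**
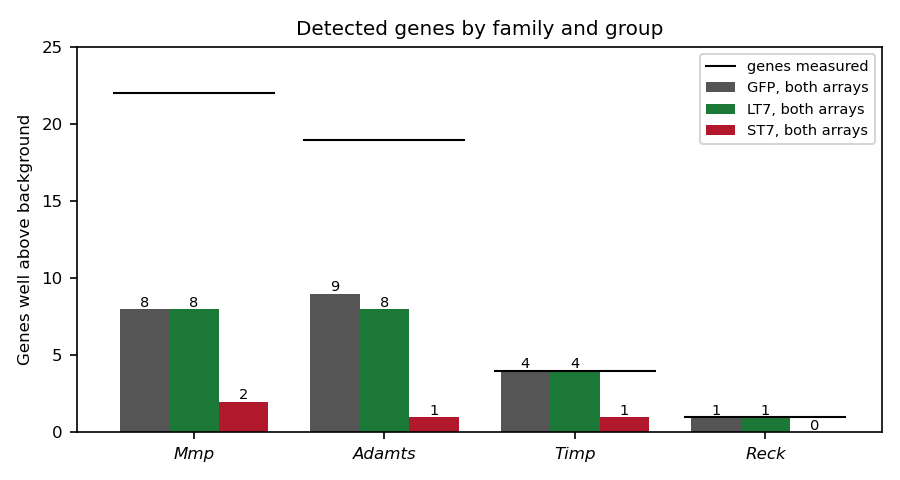
Number of genes detected on both arrays of a group (well above background), by family, at the brightest probe of each gene. Bars give the number of genes in GFP (grey), LT7 (green) and the arrays labelled ST7 (red), and the black lines give the number of genes measured in each family (22, 19, 4 and 1). GFP and LT7 differ by 1 Adamts gene, while the arrays labelled ST7 hold 2, 1, 1 and 0 genes.

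At the brightest probe another 18 genes were not well above background on any array, with signals between 2.70 and 18.0 there. The second probe of 1 of them, Adamts12, was so marked on GFP replicate 1, with 14.7. The remaining 6 genes passed on single arrays only, with signals from 2.67 to 31.7. Among them were Adamts13, which cleaves von Willebrand factor, with 4.02 and 20.6 in GFP, and Mmp28, with 4.30 and 23.1 in LT7. No change was read from the genes of either kind.

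The genes that were not detected held a whole chromosomal neighbourhood. In the RefSeq annotation of GRCm38.p6, 10 protein-coding Mmp genes follow each other on mouse chromosome 9 with no other protein-coding gene between them, in the order Mmp13, Mmp12, Mmp1b, Mmp3, Mmp1a, Mmp10, Mmp8, Mmp27, Mmp20 and Mmp7. The array measured 9 of them with 10 probes, all but Mmp1b. None of the 60 probe values was well above background, and they lay between 2.76 and 10.2. This run holds the collagenases (Mmp13, Mmp8, Mmp1a), the stromelysins (Mmp3, Mmp10), macrophage elastase (Mmp12) and matrilysin (Mmp7), which fibroblasts and leukocytes are known to induce during inflammation. No induction of any of them was detectable in either line.

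Promoters of these genes are known for a binding site of AP-1, the Jun and Fos dimer, close to a TATA box. RefSeq promoters of GRCm38.p6 were matched by symbol for 32 of the 46 genes, with 35 listed start sites, each taken from 250 bases before to 50 after the start. The AP-1 motif was searched as TGAGTCA and its reverse complement TGACTCA, the TATA motif as TATAAA and the GC box as GGGCGG, each on both strands. Of the 11 start sites of the 9 measured genes of the run, 6 held the AP-1 motif, 8 the TATA motif and 0 the GC box. Of the 13 start sites of the 12 matched genes detected in the control cells, 0 held the AP-1 motif, 1 the TATA motif and 11 the GC box. Of the 11 start sites of the other matched members, which were not detected on both arrays of a group and lie outside the run, 0 held the AP-1 motif, 1 the TATA motif and 8 the GC box. Among the matched genes these motifs thus set apart the chromosome 9 run and not the undetected genes as a whole. Only 12 of the 22 detected genes were matched, and Mmp2 and Mmp9 were among those without a promoter. Over all 32851 promoters of the table the AP-1 motif was in 5.20%, the TATA motif in 13.6%, both in 0.941% and the GC box in 35.7%. The CpG dinucleotide occurred a median of 1 time in the promoters of the run and 23 times in those of the detected genes and 20 times in those of the other members, against 7 over all promoters. A match is a run of letters and not a shown binding site.

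The 6 promoters of the undetected run that held both motifs are shown from 120 bases before to 30 bases after the start, 5′ to 3′, with the AP-1 and TATA motifs in capitals. Counted from the listed start, the TATA motif began at -28 for Mmp1a, -29 for Mmp10 and -26 for Mmp7. It began at -16 for Mmp13, at -7 for Mmp3 and at 5, past the start, for Mmp12, so its position was not shared. All lie on the plus strand of GRCm38.p6. For Mmp12 and Mmp7, which have 2 listed starts each, the start with the motifs is given.
Mmp13, chr9:7272394-7272543: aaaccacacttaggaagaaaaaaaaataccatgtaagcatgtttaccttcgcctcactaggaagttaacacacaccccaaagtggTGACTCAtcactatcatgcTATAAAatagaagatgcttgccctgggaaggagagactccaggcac
Mmp12, chr9:7347254-7347403: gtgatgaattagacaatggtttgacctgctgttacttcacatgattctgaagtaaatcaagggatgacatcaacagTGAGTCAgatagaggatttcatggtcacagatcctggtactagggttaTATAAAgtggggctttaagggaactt
Mmp3, chr9:7445702-7445851: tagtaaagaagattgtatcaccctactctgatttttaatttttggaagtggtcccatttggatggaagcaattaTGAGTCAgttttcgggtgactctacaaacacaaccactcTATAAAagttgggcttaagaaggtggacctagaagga
Mmp1a, chr9:7464021-7464170: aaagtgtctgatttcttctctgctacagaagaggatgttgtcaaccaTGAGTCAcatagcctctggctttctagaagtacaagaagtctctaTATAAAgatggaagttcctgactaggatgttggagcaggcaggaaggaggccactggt
Mmp10, chr9:7502222-7502371: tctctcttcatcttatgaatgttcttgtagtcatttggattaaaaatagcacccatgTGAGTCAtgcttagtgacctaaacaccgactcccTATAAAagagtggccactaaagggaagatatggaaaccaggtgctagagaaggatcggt
Mmp7, chr9:7691970-7692119: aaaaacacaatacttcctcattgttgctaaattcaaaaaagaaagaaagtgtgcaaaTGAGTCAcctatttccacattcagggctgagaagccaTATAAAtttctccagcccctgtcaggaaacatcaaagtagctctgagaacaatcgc

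Promoters of 4 genes that were detected in GFP and LT7 are shown for contrast over the same window, with GC boxes and TATA motifs in capitals. Mmp14 and Adamts2 lie on the plus strand, and Timp2 and Adamts1 on the minus strand. Adamts1 was the only matched gene of the detected set with a TATA motif.
Mmp14, chr14:54431478-54431627: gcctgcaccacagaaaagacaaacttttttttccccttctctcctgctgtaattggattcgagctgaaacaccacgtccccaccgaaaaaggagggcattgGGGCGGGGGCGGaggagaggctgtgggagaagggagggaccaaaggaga
Adamts2, chr11:50601965-50602114: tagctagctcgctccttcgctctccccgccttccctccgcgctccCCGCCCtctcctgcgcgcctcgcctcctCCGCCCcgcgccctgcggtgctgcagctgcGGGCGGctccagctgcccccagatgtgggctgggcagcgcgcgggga
Timp2, chr11:118355382-118355531: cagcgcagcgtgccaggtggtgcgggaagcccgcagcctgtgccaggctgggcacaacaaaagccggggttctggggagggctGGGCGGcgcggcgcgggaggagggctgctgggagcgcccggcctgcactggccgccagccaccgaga
Adamts1, chr16:85803084-85803233: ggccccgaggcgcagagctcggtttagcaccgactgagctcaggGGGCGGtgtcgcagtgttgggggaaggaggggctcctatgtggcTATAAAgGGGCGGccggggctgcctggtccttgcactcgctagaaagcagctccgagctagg

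Transcription factors known to bind metalloproteinase promoters were also measured, from a list that held the AP-1 subunits but no factor of the TATA or GC box. All 13 listed factors of the Jun, Fos, Ets and Runx families were well above background on both arrays of GFP and of LT7, and 0 of them were called by limma in LT7. On the arrays labelled ST7, 4 of these 13 factors passed on both arrays.

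The comparison of LT7 with GFP asked which of these genes differed in the long spindle-shaped line. Mmp9 and Adamts16 had higher signals in LT7 than in GFP, and Mmp2 and Adamts9 lower ones, in both replicates. None of these differences passed the adjusted threshold. Values are processed signals in arbitrary units, and each log2 change was computed after the 75th percentile of the array had been subtracted. By limma at an adjusted p under 0.05, 0 of the 65 member probes were called in LT7, 0 higher and 0 lower, against 0.176% of all probes, 0.0440% higher and 0.132% lower. The smallest adjusted p of a member was 0.102. At an unadjusted p under 0.05 there were 21 member probes, 32.3% of them, against 27.2% of all probes. Many of these 21 were well above background on no array. Adamts17, for one, had 2.83 and 2.80 in GFP and 5.20 and 4.77 in LT7. With only the probes well above background on both arrays of a group, 9 of 31 member probes had an unadjusted p under 0.05. Nothing is read from the 21 about these families.

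The study's methods also set a fold rule without an error term, read here as a log2 ratio to the GFP mean of at least 0.8 in each replicate with a mean over 1, since the methods name neither the log scale nor how the reference was averaged. It called 6 of the 65 member probes (9.23%) in LT7, against 5.92% of all probes. Called up were 5 probes (7.69%, against 2.89% of all probes) and called down 1 probe (1.54%, against 3.02%). Under scaling on the spike-in RNAs the split was 0 up and 6 down. At the brightest probe this gave Mmp9 and Adamts16 as up and Adamts9 as down. The other probes called up were the dimmer ones for Mmp9, Adamts10 and Mmp17, of which the Mmp17 probe passed on no array. Over the 29 member probes well above background on both arrays of GFP and LT7, the median log2 change was 0.22, with 18 higher and 11 lower, against a median of 0.03 over the 26973 probes of the array so detected. By gene, 13 of 21 had a positive and 8 a negative change after the percentile shift.

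**Figure D2:**
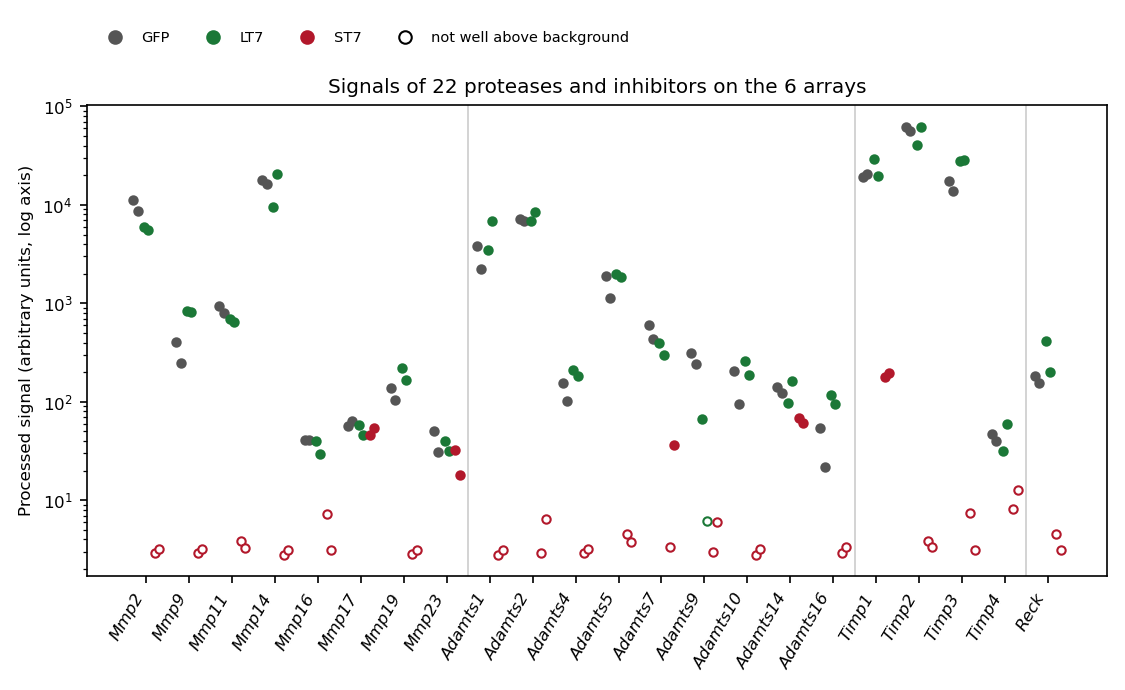
Processed signal (log axis, arbitrary units) of the 22 genes detected in the control cells, on each of the 6 arrays. Grey points are GFP, green LT7 and red the arrays labelled ST7, with open points not well above background and vertical lines between the Mmp, Adamts, Timp and Reck groups. GFP and LT7 points lie close together for most genes, and most red points lie at the background near 3.

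Among the gelatinases, which cut denatured collagen and basement membrane collagen, the LT7 values of Mmp9 lay above the controls and those of Mmp2 below them. Mmp9 (NM_013599) gave 406 and 248 in GFP and 841 and 813 in LT7. Both LT7 arrays lay above both GFP arrays. The log2 change was 1.48 (SE 0.24, adjusted p = 0.102, limma), or 2.79-fold, and it was 1.51 without LT7 replicate 1. Its second probe gave 425 and 240 in GFP and 718 and 741 in LT7, a log2 change of 1.29 (SE 0.34, adjusted p = 0.102). Mmp9 is also a product of macrophages and neutrophils. Of the 7 macrophage and leukocyte markers listed, Ptprc, Emr1, Itgam, Lyz2 and Tyrobp were not well above background on any array, and Cd68 and Csf1r were on both arrays of GFP and LT7. The summed signal of the list was 262 and 195 in GFP and 371 and 292 in LT7, with Cd68 at 113 and 68.4 in GFP and at 215 and 188 in LT7.

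Mmp2 (NM_008610), the gelatinase that fibroblasts make constitutively, gave 11277 and 8668 in GFP and 5977 and 5506 in LT7. The groups did not overlap. The log2 change was -0.69 (SE 0.19, adjusted p = 0.102, limma), and it was -0.69 without LT7 replicate 1. Mmp14 (NM_008608) encodes the membrane-bound protease that activates the MMP2 precursor. It gave 17887 and 16405 in GFP and 9584 and 20434 in LT7, so the LT7 arrays lay on either side of the controls. Its 2 probes gave log2 changes of -0.19 and -0.07 in LT7.

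Of the remaining Mmp genes none passed the test in LT7. Mmp19, a soluble metalloproteinase of many tissues, had 139 and 103 in GFP and 223 and 165 in LT7. Its groups did not overlap, and its log2 change was 0.77 (SE 0.22, adjusted p = 0.102, limma). Mmp11, a stromelysin first found in tumour stroma, had 938 and 798 in GFP and 699 and 641 in LT7, with both LT7 arrays below both controls. Mmp16 and Mmp17 encode membrane-anchored enzymes. Mmp16 had 41.3 and 41.3 in GFP and 39.6 and 29.3 in LT7. Mmp17 had 56.7 and 64.5 in GFP and 57.7 and 45.9 in LT7. Mmp23 had 49.98 and 31.1 in GFP and 40.2 and 31.9 in LT7. The groups overlapped for Mmp17 and Mmp23, and the signals of Mmp16, Mmp17 and Mmp23 lay within a few times the lowest value marked well above background, which was 13.5 to 22.3 on these arrays.

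After the percentile shift, Adamts genes gave both the largest positive and the largest negative log2 change of the detected members in LT7. Adamts16 (NM_172053), which encodes one of the less studied ADAMTS enzymes, had 54.3 and 21.9 in GFP and 116 and 95.7 in LT7. Both LT7 arrays were above both controls, and the log2 change was 1.71 (SE 0.38, adjusted p = 0.102, limma). It was 2.24 without GFP replicate 1 and 1.18 without GFP replicate 2. The second Adamts16 probe gave 3.12 and 2.76 in GFP and 5.12 and 4.69 in LT7 and was well above background on no array. Adamts9 (NM_175314), a versican and aggrecan protease, had 314 and 240 in GFP and 66.2 and 6.22 in LT7. Both LT7 values were below the controls, but they lay far apart from each other, and the lower was not well above background. The log2 change was -3.66 (SE 1.09, adjusted p = 0.104, limma). Without LT7 replicate 1 it was -5.32 (adjusted p = 0.044), past the threshold, and without LT7 replicate 2 it was -2.01.

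Adamts1, Adamts4 and Adamts5, whose products cut aggrecan or versican, did not pass the test in LT7. Adamts1 (NM_009621) had 3821 and 2251 in GFP and 3465 and 6849 in LT7, so the groups overlapped in signal. The log2 change was 0.83 (SE 0.42, adjusted p = 0.29, limma) and it was 1.37 without LT7 replicate 1 and 0.29 without LT7 replicate 2. Adamts4 (NM_172845), an aggrecanase, had 155 and 101 in GFP and 210 and 184 in LT7. Both LT7 values were above both controls, and the log2 change was 0.75 (SE 0.22, adjusted p = 0.104). Adamts5 (NM_011782), another aggrecanase, had 1882 and 1129 in GFP and 1983 and 1863 in LT7, and the groups overlapped in signal. After the percentile shift the LT7 values of Adamts1 and Adamts5 lay above both controls.

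The procollagen proteases and the other detected Adamts genes did not pass the test in LT7 either. Adamts2, which removes the amino-terminal propeptide of fibrillar procollagens, had 7137 and 6863 in GFP and 6801 and 8497 in LT7. Adamts14, a protease of the same kind, had 143 and 124 in GFP and 96.7 and 162 in LT7. The groups overlapped for both genes. Adamts10, which acts on fibrillin microfibrils, had 204 and 95.2 in GFP and 261 and 189 in LT7, with overlapping signals. After the percentile shift its LT7 values lay above both controls, and it changed by 0.77 on the log2 scale (SE 0.34, limma, adjusted p = 0.24). Leaving out GFP replicate 1 gave 1.19 and leaving out GFP replicate 2 gave 0.34. The second probe gave 1.07. Adamts7, a protease of cartilage oligomeric matrix protein, had 605 and 434 in GFP and 393 and 299 in LT7. Its LT7 arrays lay below the controls at both probes, with log2 changes of -0.48 (SE 1.07) and -0.73 (SE 0.19, adjusted p = 0.102). The SE of 1.07 also takes in the arrays labelled ST7, where the brighter probe had 3.37 and 36.7.

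The inhibitors were detected in full in GFP and LT7, and none passed the test in LT7. Timp3 (NM_011595), which binds to the matrix and also inhibits ADAMTS4 and ADAMTS5, had 17631 and 13906 in GFP and 27644 and 28637 in LT7. Both LT7 arrays were above both controls. The log2 change was 0.94 (SE 0.45, adjusted p = 0.27, limma), 1.02 without LT7 replicate 1, and with normexp background correction it was 0.96 (adjusted p = 0.019). The SE of 0.45 also takes in the arrays labelled ST7, where this probe had 7.38 and 3.11 and was not well above background. Reck (NM_016678) had 184 and 154 in GFP and 410 and 198 in LT7, a log2 change of 0.86 (SE 0.40, adjusted p = 0.25). It was 0.39 without LT7 replicate 1, which gave the higher LT7 value.

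For the other inhibitors the groups overlapped. Timp1 (NM_011593) had 19224 and 20409 in GFP and 28936 and 19449 in LT7, and its log2 change of 0.36 (limma) had an SE of 0.26 and an adjusted p of 0.47. Timp2 (NM_011594), which also takes part in the activation of MMP2 by MMP14, had 61672 and 56544 in GFP and 40747 and 62524 in LT7, with a log2 change of -0.13 (SE 0.31, adjusted p = 0.86). Its spot was saturated on 1 GFP and 1 LT7 array, so these levels are limited by the scanner. Timp4 (NM_080639) had 47.5 and 40.2 in GFP and 31.4 and 59.8 in LT7, with a log2 change of 0.08 (SE 0.41, adjusted p = 0.94). In the RefSeq annotation of GRCm38.p6, Timp1, Timp3 and Timp4 overlap the synapsin genes Syn1, Syn3 and Syn2, and Timp2 overlaps Cep295nl.

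**Figure D3:**
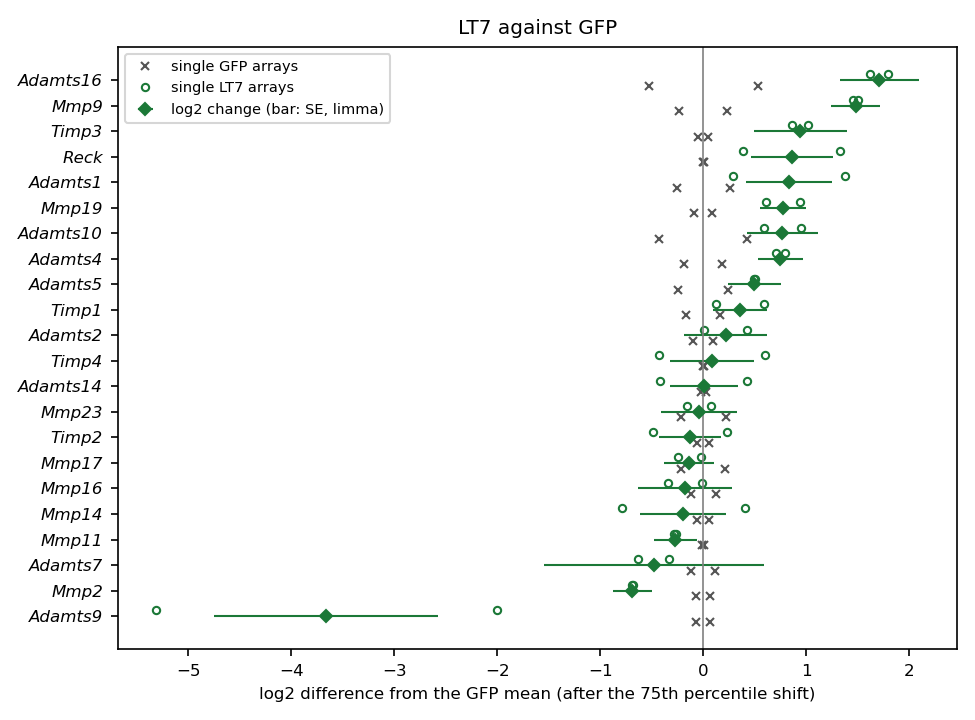
Log2 difference from the GFP mean in LT7, after subtraction of the 75th percentile of each array, for the 22 genes detected in the control cells. Diamonds give the log2 change with its SE from limma, green circles the single LT7 arrays and grey crosses the single GFP arrays. Adamts16 (1.71) and Mmp9 (1.48) lie to the right of both controls and Adamts9 (-3.66) to the left, and none of these changes passed the adjusted threshold.

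Scaling on the spike-in RNAs turned the sign of many changes in LT7, while Mmp2 and Adamts9 stayed negative under each of the 14 alternatives tried. Over all probes the LT7 median log2 change was 0.17 after the percentile shift and 0.07 when arrays were not scaled. It was 0.02 after quantile normalization and -2.05 when the 5 spike-in RNAs set the scale, under which Mmp9 (-0.73) and Adamts16 (-0.50) were also negative. Relative to the median of all probes, 11 of the 22 detected genes lay above it and 7 below it under all 6 scalings, and 4 changed side. By construction this takes out any constant shift of an array, so only the normexp and quantile settings could move it. Mmp9 stood 1.28 to 1.32 above the median, Adamts16 0.83 to 1.54, Timp3 0.78 to 1.09, and Reck 0.62 to 0.71. Mmp2 stood between -0.86 and -0.69, and Adamts9 between -3.83 and -1.75. The 4 genes that changed side were Adamts14, Mmp23, Timp2 and Timp4.

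The comparison of the arrays labelled ST7 with GFP asked which of these genes differed in the small colony-forming line. Of the 22 genes detected in GFP at their brightest probe, 17 were well above background on neither of these arrays. Among the 31 member probes well above background on both GFP arrays, 24 (77.4%) were not so on either array labelled ST7, against 16997 of 32130 probes (52.9%) over the whole array. In LT7 the same count was 0 of 31, against 2642 of 32130 (8.22%).

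By limma 59 of the 65 member probes were called between the arrays labelled ST7 and GFP (90.8%), against 90.6% of all probes. Of these 41 (63.1%) were higher, against 70.7% of all probes, and 18 (27.7%) lower, against 19.8%. By the fold rule 57 member probes were called (87.7%), against 90.0% of all probes, with 40 (61.5%) up, against 70.9%, and 17 (26.2%) down, against 19.1%. The member counts were thus near those of the whole array, and nothing is read from them about these families. The percentile shift alone took the all-probe median of the log2 change from -0.68 without scaling to 3.72, so that a probe at the background on both sides could be called higher. Of the 41 member probes called higher, 29 were not well above background on any array of either group. With only the probes well above background on both arrays of a group, 25 member probes were called, 7 higher and 18 lower. The split also moved with the scaling, to 0 higher and 28 lower without scaling, 0 and 21 with the spike-in RNAs, 13 and 21 with quantile normalization, and 47 and 10 with normexp background correction.

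Timp2 had the highest lower limit of a loss among the members on the arrays labelled ST7. It gave 61672 and 56544 in GFP and 3.85 and 3.33 on the arrays labelled ST7. It was at least 190-fold lower there (log2 change -9.61, SE 0.31, adjusted p = 1.7e-05, limma). Timp3 had 17631 and 13906 in GFP and 7.38 and 3.11 on the arrays labelled ST7, at least 50.4-fold lower (log2 change -7.28, SE 0.45, adjusted p = 3.7e-05). Timp1 stayed well above background at its brighter probe, with 177 and 198 on the arrays labelled ST7 against 19224 and 20409 in GFP. At this probe it was 5.02-fold lower after the shift (log2 change -2.33, SE 0.26, adjusted p = 3.9e-04), and the log2 change was -6.73 without scaling. Its second probe gave 2902 and 2560 in GFP and 10.0 and 10.7 on the arrays labelled ST7, not well above background and at least 8.77-fold lower.

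Reck and Timp4 could not be followed. Reck had 4.53 and 3.09 on the arrays labelled ST7, not well above background, and the floor allowed no limit of its fold. Its log2 change of -1.09 (SE 0.40, adjusted p = 0.043, limma) became 0.48 with normexp background correction. Timp4 had 8.24 and 12.7 on those arrays against 47.5 and 40.2 in GFP. Its signals were lower, but its log2 change after the shift was 2.30 (SE 0.41, adjusted p = 0.0028), and it was -2.09 without scaling.

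The metalloproteinases and ADAMTS proteases with strong signals in the controls were likewise at the background on the arrays labelled ST7. Mmp14 had 17887 and 16405 in GFP and 2.78 and 3.13 there, at least 55.1-fold lower (log2 change -8.10, SE 0.42, adjusted p = 1.9e-05, limma). Mmp2 had 11277 and 8668 in GFP and 2.91 and 3.23 there, at least 31.8-fold lower (log2 change -7.26, SE 0.19, adjusted p = 1.7e-05). Mmp14 and Timp2, which take part in the activation of MMP2, and Mmp2 itself were thus not well above background on either of these arrays. Adamts1 had 3821 and 2251 in GFP and 2.81 and 3.16 there, at least 9.44-fold lower (log2 change -5.54, SE 0.42, adjusted p = 7.8e-05). Adamts2 at its brighter probe had 7137 and 6863 in GFP and 2.93 and 6.39 there, at least 22.5-fold lower (log2 change -6.26, SE 0.40, adjusted p = 4.2e-05). Adamts5, Mmp11 and Mmp9 were also lower, by at least 4.69-fold, 2.79-fold and 1.02-fold.

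For Adamts4, Adamts9, Adamts10, Adamts16, Mmp16 and Mmp19 the signals lay between 2.80 and 7.22 on the arrays labelled ST7, but their control signals were too low to set a limit. Adamts7 was at 3.37 on 1 of these arrays and at 36.7 on the other. The fitted change of Adamts7 was -1.13 (SE 1.07, adjusted p = 0.35, limma), and no direction is given.

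At their brightest probes Mmp17, Mmp23 and Adamts14 stayed well above background on all arrays. The lowest signals so marked on the arrays labelled ST7 were 13.9 and 15.5. The second Mmp17 probe passed on no array. The second Adamts14 probe had 6.40 and 19.5 on the arrays labelled ST7 and passed only on the latter of them. Mmp17 (NM_011846), whose product is anchored by a lipid, had 56.7 and 64.5 in GFP, 57.7 and 45.9 in LT7, against 46.2 and 53.7 on the arrays labelled ST7. Mmp23 (NM_011985) had 49.98 and 31.1 in GFP and 32.0 and 18.0 on the arrays labelled ST7. Adamts14 (NM_001081127) had 143 and 124 in GFP and 68.8 and 61.5 there. Their signals were thus similar to or below those of the controls, on arrays whose 75th percentile was far lower. After the shift they were called 17.4-fold, 12.9-fold and 10.3-fold higher (log2 changes 4.12, 3.69 and 3.37, SE 0.24, 0.37 and 0.33, adjusted p = 3.1e-05, 2.5e-04 and 2.3e-04, limma). Without scaling the log2 changes were -0.28, -0.71 and -1.03, and under spike-in scaling -0.09, -0.53 and -0.85, so the direction rested on the scaling. Against the median of all probes after the shift, Mmp17 stood at 0.40, Mmp23 at -0.03 and Adamts14 at -0.36.

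**Figure D4:**
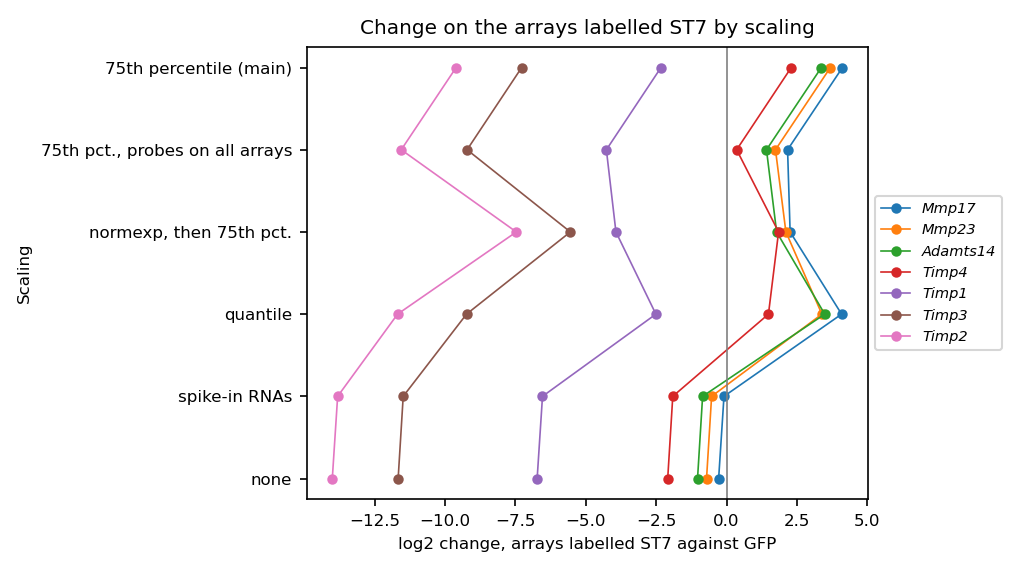
Log2 change on the arrays labelled ST7 against GFP under 6 scalings of the signals, for the 4 Timp genes and for Mmp17, Mmp23 and Adamts14. Timp1, Timp2 and Timp3 lie below 0 under all 6 scalings, between -14.01 and -2.33. Mmp17, Mmp23, Adamts14 and Timp4 lie above 0 under 4 scalings and below 0 without scaling and with spike-in scaling.

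The detected genes were taken through their signal in the controls, so a place below the median of all probes on the arrays labelled ST7 was largely fixed by that choice, and values relative to it are a description. Over the 6 scalings Timp2 stood between -13.33 and -9.71, Mmp14 between -11.82 and -8.04, Timp3 between -11.00 and -7.79, Mmp2 between -10.98 and -7.25, and Timp1 between -6.17 and -2.88. The log2 change of a gene at the background is no limit of its loss, so for all of these genes other than Timp1 the folds given above are the limits.

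The arrays labelled ST7 were also compared with LT7, the other SIRT7 line. By limma 60 of the 65 member probes were called (92.3%), against 90.7% of all probes. Of these 41 (63.1%) were higher, against 71.0% of all probes, and 19 (29.2%) lower, against 19.7%. Timp2 was at least 174-fold lower than in LT7, Timp3 at least 97.0-fold, Mmp14 at least 48.2-fold, Adamts2 at its brighter probe at least 26.2-fold, and Mmp2 at least 19.8-fold. The dimmer Adamts2 probe was called 9.51-fold higher after the shift, with a log2 change of -1.05 without scaling. Timp1 was 6.43-fold lower at its brighter probe (log2 change -2.69, SE 0.26, adjusted p = 2.1e-04, limma; -6.99 without scaling) and at least 9.05-fold lower at the second. Mmp9 was at least 2.85-fold lower (log2 change -3.78, SE 0.24, adjusted p = 3.9e-05). This comparison shares the arrays labelled ST7 with the one before it.

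Where a gene had more than 1 probe, the probes could be set side by side. Of the 46 genes 19 had more than 1 probe. For 8 genes both probes were well above background on both arrays of GFP and LT7. Their log2 changes in LT7 had the same sign in 7 of 8, the exception being Adamts5 (0.50 and -0.16), and differed by a median of 0.27 and at most 0.66. The probes of Mmp9, the gene with the smallest unadjusted p of the members in LT7, gave 1.48 and 1.29. Both are 60-base oligonucleotides for the same transcript, and their first 30 bases, as the scanner files give them, show that they are different stretches.
Mmp9, brighter probe: tctggcgtgtgagtttccaaaatgaggtga
Mmp9, second probe: ccaaccttttccagctactttagtcaatca

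For Adamts2 and Adamts9 the probes of a gene differed. Both Adamts2 probes are listed for NM_175643, and their first 30 bases are shown because the arrays labelled ST7 set them apart.
Adamts2, brighter probe: caaagaatccaggagctcattaatgcagtg
Adamts2, dimmer probe: gggcttcactattccatgaacgagcagtgt
On the arrays labelled ST7 the brighter probe fell from 7137 and 6863 in GFP to 2.93 and 6.39. The dimmer probe had 130 and 112 in GFP, 133 and 197 in LT7, against 78.0 and 78.3 on the arrays labelled ST7, where it was well above background on both. The brighter probe lost nearly all its signal while the dimmer one kept most of its own, and after the percentile shift they were called in opposite directions, with log2 changes of -6.26 and 3.77. Without scaling both were lower (-10.66 and -0.62). For Adamts9 the dimmer probe passed on no array, so the value of this gene rests on 1 probe.

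Genes that act with these proteases were counted by lists. None of the 66 listed genes was called by limma in LT7, so none is named with a change. Of 10 ADAM proteases, membrane-bound sheddases related to the ADAMTS enzymes, 8 were well above background on both arrays of GFP and of LT7, and 1 on both arrays labelled ST7. Of 6 ADAMTS-like proteins, which lack the protease domain, 3 were so in GFP, 2 in LT7 and 0 on the arrays labelled ST7. Of 10 genes for activation and induction of metalloproteinases, among them furin and the plasminogen activators, 7 were so in GFP, 7 in LT7 and 2 on the arrays labelled ST7.

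Of 12 genes for other inhibitors and for clearance of proteases, such as alpha-2-macroglobulin and the receptor Lrp1, 6 were well above background on both arrays of GFP, 6 of LT7 and 5 on those labelled ST7. Of 10 substrates, namely aggrecan and related proteoglycans, collagens and fibronectin, 9 were so in GFP, 8 in LT7 and 3 on the arrays labelled ST7. Of 5 other metzincins, such as Bmp1, which cuts the carboxyl-terminal propeptide of procollagen, 2 were so in GFP, 2 in LT7 and 1 on the arrays labelled ST7. In LT7 the median log2 changes of these lists lay between -0.30 for the other inhibitors and 0.76 for the other metzincins, against 0.17 for all probes. The 0.76 is the value of Tll1, which was well above background on no array, with 2.71 and 2.75 in GFP and 4.17 and 4.49 in LT7. No change is read from it. On the arrays labelled ST7 limma called 8 of 10 substrates lower and 2 higher, with a median log2 change of -4.39, against 19.8% lower and 70.7% higher and a median of 3.72 over all probes. For the ADAM proteases it called 6 of 10 lower and 3 higher, and for the other inhibitors 5 of 12 lower and 6 higher. It called 5 of 10 activation genes lower and 4 higher, and 7 of 13 transcription factors lower and 3 higher. Of the 6 ADAMTS-like proteins 1 was called lower and 3 higher, and of the 5 other metzincins 1 lower and 3 higher. As among the members, genes called higher included some well above background on no array, such as Papln, Tll1, Tll2, A2m, Tfpi2 and Spock3. Since 9 of 10 substrates were detected in GFP, lower calls were favoured for them in advance. Nothing is read from these counts.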

How the data were processed

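Cy3-labelled RNA of the GFP, LT7 and ST7 lines was hybridised to 6 one-colour Agilent arrays, 2 per group, with 61307 non-control probes. The deposited scanner files, made with Agilent Feature Extraction (10.5.1.1 per the file headers), hold a background-subtracted intensity per spot and marks for outlier, saturated and well above background spots. The authors shifted each array by a percentile in GeneSpring and deposited log2 values, which served as an alternative. After a constant offset per array these differed by more than 0.01 from the values computed here on 5 to 13 probes. The number of arrays limits the precision.

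Outlier spots (19 to 141 per array) were dropped, repeated spots averaged, and each array's log2 intensities set relative to its own 75th percentile. Groups were compared by limma 3.58.1 (R 4.3.3) fitted to the 6 arrays together, at a Benjamini-Hochberg adjusted p of 0.05 over every probe, and by the fold rule of the study's methods as read on the log2 scale. The limma step was tested on simulated data. Genes were taken at their brightest probe by mean signal over the 6 arrays. Array values were given for the 22 genes so detected in at least 1 group. Log2 changes were given for the Timp genes and Reck, for any limma call in LT7, for the 10 genes with the largest change in LT7, and for the 10 with the largest fold or limit of the fold in ST7. Values of other detected genes were added beside them.

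The members and gene lists were chosen with earlier results of these data known. Other scalings, normexp correction, a filter on dim probes, a replicate block and leaving out single arrays were tried. Gene order and promoters came from RefSeq tables of GRCm38.p6, in which all 46 symbols were found.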

Additional observations from a re-analysis of the deposited data

Results flagged for a closer look

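Mmp9, a gelatinase of fibroblasts and leukocytes, was picked because the fold rule called it up in LT7 and down on the arrays labelled ST7, so its difference between the lines is a description. Its log2 change was 1.48 in LT7, which did not pass the adjusted threshold, and -2.30 on the arrays labelled ST7, where its signal did not pass the background mark. The fitted difference was -3.78, or at least 2.85-fold lower than in LT7, in a comparison where limma called 19.7% of all probes lower. On the same arrays 4 of 11 fibroblast markers were well above background on both, and the 75th percentile was 16.3 and 17.1. The part of these in the difference was not tested.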

How the results depend on the processing

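Counts of member probes called by limma in LT7 were 0 under all alternatives, except 2 with normexp background correction (Mmp9 and Timp3, both higher) and 2 without LT7 replicate 1 (Adamts9 at -5.32, adjusted p = 0.044, and Mmp28 at 3.24, adjusted p = 0.039), a range of 0 to 2 when single arrays were left out. Between the arrays labelled ST7 and GFP the count of 59 became 28 without scaling, 34 with quantile normalization, 21 with spike-in scaling and 25 with dim probes left out, and it was 56 to 60 without single arrays. Between the arrays labelled ST7 and LT7 the count of 60 became 39, 35, 11 and 26 in the same order, and 57 to 60 without single arrays. By the fold rule the 6 calls in LT7 (5 up, 1 down) became 0 up and 6 down with spike-in scaling, 3 in all with normexp, and 8 to 14 without single arrays (14 without GFP replicate 2, 12 without LT7 replicate 1, and 8 and 9 for the other arrays). The 57 fold calls on the arrays labelled ST7 became 29, 36, 27 and 23 in the same order as above, and 58 to 59 without single arrays. Settings without scaling and with spike-in RNAs left 0 probes higher on the arrays labelled ST7.

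For the 25 log2 changes given by rule, 320 of 350 values under the alternatives kept their direction and their side of the threshold. With spike-in scaling the LT7 changes of Adamts1 (-1.38), Adamts10 (-1.45), Adamts16 (-0.50), Adamts4 (-1.47), Mmp19 (-1.44), Mmp9 (-0.73), Reck (-1.35), Timp1 (-1.86), Timp3 (-1.27) and Timp4 (-2.13) reversed, beside a median of -2.05 over all probes. On the arrays labelled ST7 the changes of Adamts14, Mmp17, Mmp23 and Timp4 reversed to -1.03, -0.28, -0.71 and -2.09 without scaling and to -0.85, -0.09, -0.53 and -1.91 with spike-in scaling, and that of Reck to 0.48 with normexp. In LT7 Timp2 reversed to 0.04 with quantile normalization and Timp4 to -0.01 without scaling. When single arrays were left out, Timp2 in LT7 ranged from -0.49 to 0.23 and Timp4 from -0.43 to 0.60. Taking the replicate number as a replicate block left 0 calls in LT7, 59 between the arrays labelled ST7 and GFP, and 58 between those and LT7, and changed no call among the 25 changes. The replicate numbers only name the arrays. Deviations of same-numbered arrays correlated at 0.08 for GFP and LT7, 0.04 for GFP and ST7 and -0.02 for LT7 and ST7 over all probes, and at 0.09, 0.33 and -0.03 over the 11137 probes that passed the background mark on every array. The cause was not tested in these cases, other than that a constant shift moves all probes of an array alike. Signals below the lowest value marked well above background, 13.9 and 15.5 on the arrays labelled ST7, limit what these arrays can show.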
